A study of Mus musculus with 15 samples.

Results

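The leukocyte adhesion and homing genes described here were 9 of the 23420 gene symbols in the deposited expression table: the selectins Sele and Selp, the selectin ligand Selplg, the vascular ligands Icam1 and Vcam1, and the integrin chains Itgal, Itgb2, Itga4 and Itgb7. They were matched to the table by symbol, and all 9 were in it. All 9 also passed the filter on low values, a level of at least 1 TPM (a length-corrected share of all transcripts in a library, scaled to a fixed total) in at least 3 libraries, which left 13592 genes to test.

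White blood cells leave the blood in steps. Selectins on activated endothelium slow the passing cells, which roll on them, and chemokines at the vessel wall then switch integrins on the leukocyte to a tight-binding state. The integrin LFA-1 (Itgal paired with Itgb2) holds to Icam1, the integrin VLA-4 (Itga4 paired with Itgb1) holds to Vcam1, and the integrin made of Itga4 and Itgb7 is known for homing to the gut. In tumors these molecules are studied as the entry gate for T cells and myeloid cells.

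Bulk RNA was sequenced from 15 mouse melanoma grafts in 5 groups of 3. Female C57BL/6 mice aged 8 weeks received 1000000 cells per flank of either D4M.3A.3, the parental line, or D3UV2, called UV2, a line with putative neoantigens induced by UVB light. Treatment fell on days 8, 10 and 12, and the grafts were harvested on day 13. Parental grafts received isotype control antibody, anti-PD-1 (an antibody against the T cell checkpoint receptor PD-1) or triple therapy, and UV2 grafts received isotype antibody or anti-PD-1. Triple therapy combined antibody with ablative fractional photothermolysis, a laser treatment that leaves fine channels in the skin, and topical imiquimod, which stimulates Toll-like receptor 7. The labels disagree on whether its antibody was anti-PD-1 or isotype. They also leave unsaid whether replicate libraries are from different mice and whether UV2 is a single clone, so the p-values reflect only the spread among these libraries, which may be partly technical.

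Each library summed to 1000000 TPM and had 12239 to 13993 genes at 1 TPM or more, and the number of reads behind the values is unknown. Correlations between libraries ran from 0.820 to 0.990. Of the melanocyte markers checked, Dct and Tyrp1 were listed at 0 in 11 libraries each and Mlana in 10, whereas Mitf lay between 5.28 and 14.15 TPM and Tyr between 1.49 and 4.57 TPM. Endothelial and leukocyte markers were above 0 in every library. Triple therapy replicate 1 stood apart with a summed keratinocyte marker level of 17255.7 TPM, against 123.0 and 1238.8 TPM in the other libraries of its group. UV2 anti-PD-1 replicate 3 also stood apart, at 365.0 TPM against 3.91 and 4.15 TPM in its group, and the libraries outside these groups lay between 2.31 and 4.10 TPM. Skeletal muscle markers summed to 1.32 to 660.2 TPM over all libraries and varied widely within groups.

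Sele encodes E-selectin, and Icam1 the main ligand of LFA-1; both are textbook targets of NF-kappaB, the transcription factor switched on by inflammatory cytokines. Their promoters are shown because these genes moved in opposite directions between the lines, as described below, while carrying a similar short element. The stretches run from base -220 to base -121 relative to the RefSeq start site, which is counted as 0. They come from RefSeq on GRCm38.p6, both on the plus strand, Sele at chr1:164048014-164048113 and Icam1 at chr9:21015720-21015819. Capitals mark matches to GGANATTCC or to GAAANNGAA.
Sele: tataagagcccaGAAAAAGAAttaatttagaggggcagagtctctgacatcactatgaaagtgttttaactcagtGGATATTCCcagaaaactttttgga
Icam1: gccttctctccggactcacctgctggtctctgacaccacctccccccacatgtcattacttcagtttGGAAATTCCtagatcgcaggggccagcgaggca
The kappaB-type GGANATTCC, a pattern chosen after the sequences had been read, lay at bases -145 to -137 of Sele and -153 to -145 of Icam1, and in 0.931% of the 32851 promoters of 300 bases that were searched, all on both strands. GAAANNGAA, part of the interferon-stimulated element, lay at -208 to -200 of Sele and at 9 to 17 of Selp, and in 8.56% of all promoters. The GC box GGGCGG occurred once in the Itga4 window and at 2 places in that of Icam1, on its minus strand, and in 35.7% of all promoters. The standard NF-kappaB consensus matched none of the 5 windows that could be matched to a member (Sele, Selp, Itga4, Icam1 and Itgb7) and 8.46% of all promoters. No motif overlapped another in these windows, and the Itgb7 window held none. These matches describe letters and not bound sites.

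On GRCm38, the selectin genes Sele (1:164048234-164057677) and Selp (1:164115264-164150026) lie 57586 bases apart in the same orientation. Icam1 is at 9:21015985-21028817, Vcam1 at 3:116109949-116129688, Selplg at 5:113818536-113832644, Itgal at 7:127296260-127335138, Itgb2 at 10:77530252-77565708, Itga4 at 2:79255426-79333123 and Itgb7 at 15:102215995-102231944.

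Vcam1, Itgb2 and Selplg were the most abundant members, with means over the 15 libraries of 143.7, 142.7 and 98.7 TPM. Icam1 (33.6 TPM), Itgb7 (29.9 TPM), Itgal (25.2 TPM) and Itga4 (14.3 TPM) followed, and the selectins were lowest, at 7.97 TPM for Sele and 3.57 TPM for Selp. The selectins also varied most: the highest library exceeded the lowest 20.9-fold for Sele and 18.5-fold for Selp, but 3.23-fold for Vcam1. UV2 grafts under anti-PD-1 had the highest group mean for Selplg, Icam1, Itgal, Itgb2 and Itgb7, and the parental isotype group had the lowest for those 5 and for Selp and Vcam1. Sele and Itga4 ran the other way, with their highest means in parental anti-PD-1 grafts and their lowest in UV2 isotype grafts.

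**Figure D1:**
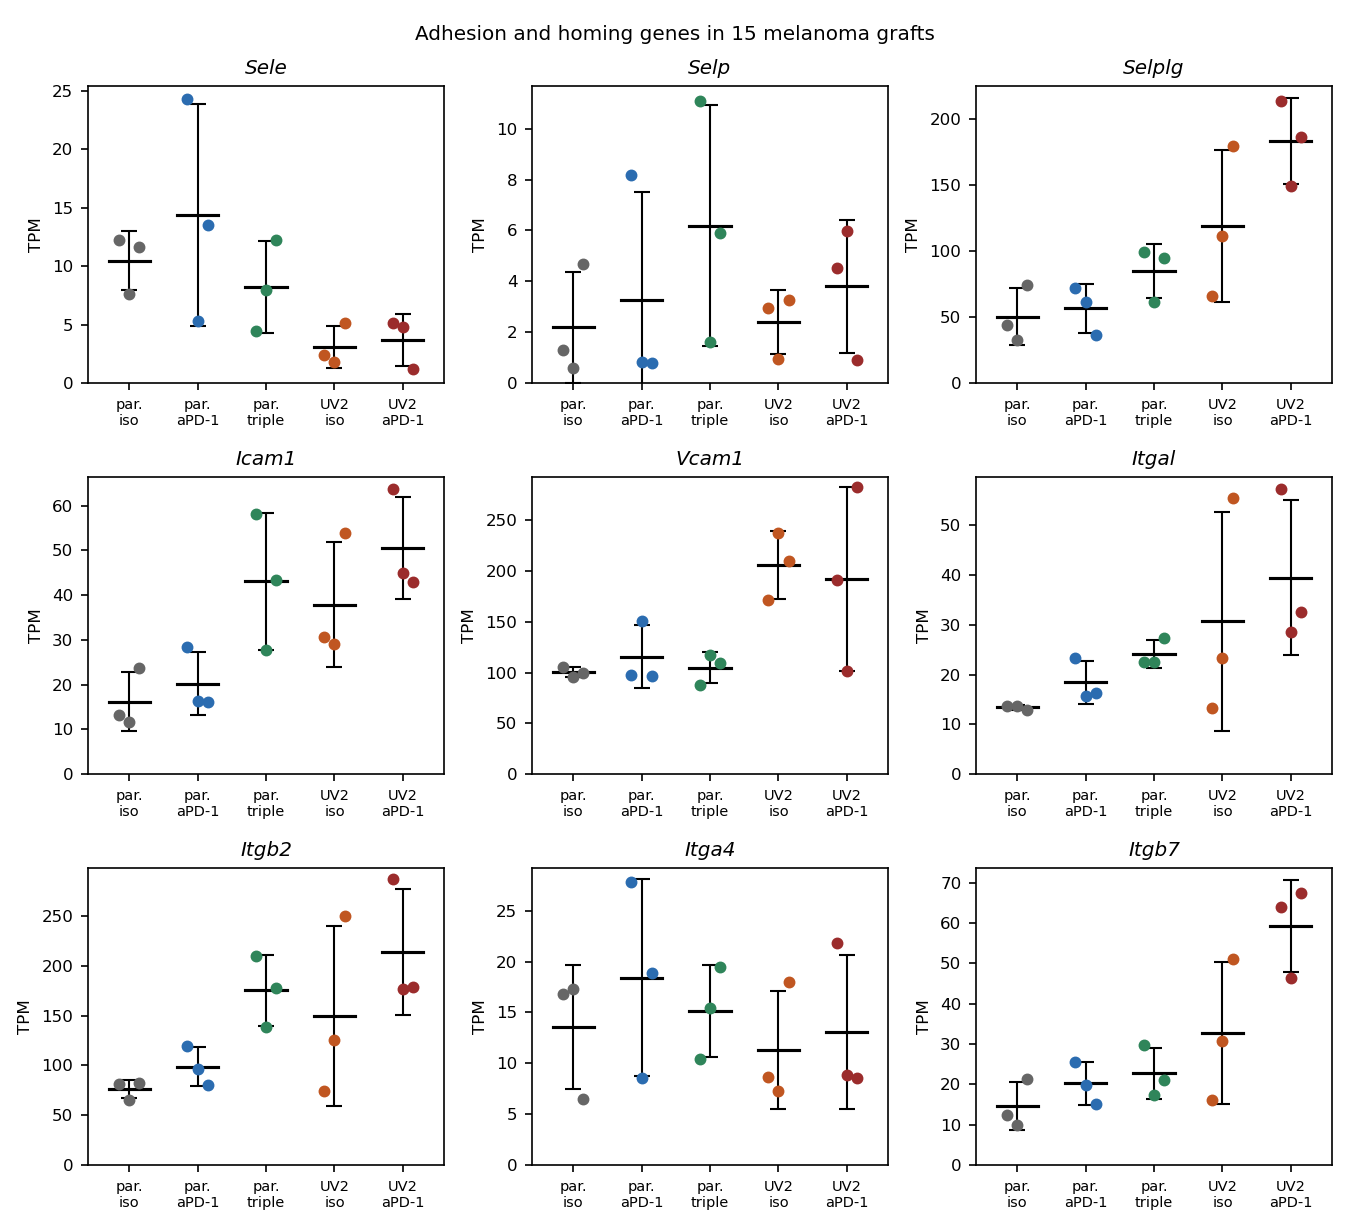
TPM of each member (vertical axis, linear, cut at 0) in the 5 groups of 3 libraries; points are libraries and bars are the group mean with its SD. Sele is low in both UV2 groups, whereas Selplg, Icam1, Itgb2 and Itgb7 reach their highest levels in UV2 grafts under anti-PD-1.

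Among the selectins, Sele was the only member lower in UV2 than in parental grafts with no overlap under both antibodies. Its TPM was 12.25, 7.60 and 11.60 in parental isotype replicates 1 to 3, and 2.39, 1.76 and 5.10 in UV2 isotype replicates. Under anti-PD-1 the parental grafts gave 24.26, 5.31 and 13.49 TPM, and the UV2 grafts 5.12, 4.83 and 1.16 TPM. Every UV2 value thus lay below every parental value of the same antibody, although the margin under anti-PD-1 was small, between 5.12 and 5.31 TPM. Triple therapy grafts had 4.41, 8.00 and 12.21 TPM, spanning from the UV2 range into the parental isotype range. In order of group mean, parental anti-PD-1 (14.4 ± 9.50 TPM, SD, n = 3), parental isotype (10.5 ± 2.52), triple therapy (8.21 ± 3.90), UV2 anti-PD-1 (3.70 ± 2.21) and UV2 isotype (3.08 ± 1.77) each overlapped the next.

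Selp encodes P-selectin, which endothelial cells and platelets store and release to the surface on activation. It showed no separation of groups: parental isotype grafts had 1.30, 0.60 and 4.68 TPM, parental anti-PD-1 grafts 8.17, 0.84 and 0.80 TPM, and UV2 isotype grafts 2.95, 0.95 and 3.28 TPM. UV2 anti-PD-1 grafts had 4.51, 5.99 and 0.89 TPM, and triple therapy grafts 11.08, 1.60 and 5.90 TPM. Single libraries at or under 1.60 TPM occurred in every group, and the highest value was that of triple therapy replicate 1. Its endothelial markers summed to 580.4 TPM and its platelet markers to 594.6 TPM, both the highest of the 15. The same library was also highest for neutrophil (3565.8 TPM), fibroblast and pericyte (19654.7 TPM) and keratinocyte markers (17255.7 TPM). Only 3 of the 7 platelet markers passed the filter on low values. Which cells carried Selp was not tested.

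Selplg encodes PSGL-1, the leukocyte glycoprotein that P-selectin binds. It was 43.58, 32.67 and 74.09 TPM in parental isotype grafts, 65.61, 111.06 and 179.75 TPM in UV2 isotype grafts, 71.97, 61.22 and 36.28 TPM in parental anti-PD-1 grafts, and 213.74, 149.25 and 186.33 TPM in UV2 anti-PD-1 grafts. The lines did not overlap under anti-PD-1 but did under isotype, where UV2 replicate 1 lay below parental replicate 3. Triple therapy grafts, at 98.91, 61.22 and 94.63 TPM, overlapped both parental groups and the UV2 isotype group.

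Of the vascular ligands, Icam1 separated UV2 from parental grafts under each antibody. Parental isotype grafts had 13.13, 11.69 and 23.70 TPM and UV2 isotype grafts 30.56, 29.11 and 53.95 TPM. Parental anti-PD-1 grafts had 28.37, 16.23 and 16.07 TPM and UV2 anti-PD-1 grafts 63.69, 44.85 and 43.03 TPM. With 58.17, 27.63 and 43.45 TPM, triple therapy grafts also lay wholly above parental isotype grafts and overlapped both UV2 groups. In order, the group means were UV2 anti-PD-1 (50.5 ± 11.4 TPM), triple therapy (43.1 ± 15.3), UV2 isotype (37.9 ± 13.9), parental anti-PD-1 (20.2 ± 7.06) and parental isotype (16.2 ± 6.56). The ranges of UV2 isotype and parental anti-PD-1 grafts did not overlap, while the other neighbours did, and triple therapy grafts also overlapped parental anti-PD-1 grafts.

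Vcam1, the ligand of VLA-4, was tightly grouped in parental isotype grafts, at 105.68, 95.44 and 99.63 TPM. UV2 isotype grafts had 171.16, 237.81 and 209.88 TPM, all above them. Under anti-PD-1 the parental grafts had 97.74, 151.17 and 97.04 TPM and the UV2 grafts 191.57, 101.67 and 282.71 TPM, which overlapped because UV2 replicate 2 stood at a parental level. Triple therapy grafts gave 87.58, 117.74 and 109.03 TPM, on either side of the parental isotype values.

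On the leukocyte side, Itgal, the alpha chain of LFA-1, was nearly constant in parental isotype grafts, at 13.76, 13.64 and 12.86 TPM. Every parental anti-PD-1 graft (23.32, 15.59 and 16.37 TPM) and every triple therapy graft (22.43, 22.47 and 27.39 TPM) lay above that range. UV2 isotype grafts, at 13.25, 23.39 and 55.51 TPM, ran from the parental level to the second highest value of the series, and UV2 anti-PD-1 grafts had 57.30, 28.59 and 32.52 TPM. Itgb2, the beta chain shared by LFA-1 and other leukocyte integrins, was 81.12, 65.63 and 82.11 TPM in parental isotype grafts, 73.77, 124.95 and 249.89 TPM in UV2 isotype grafts, and 119.58, 96.08 and 80.23 TPM in parental anti-PD-1 grafts. UV2 anti-PD-1 grafts had 286.63, 176.19 and 178.36 TPM, and triple therapy grafts 209.71, 138.55 and 177.96 TPM. For both LFA-1 chains the UV2 isotype group was the widest, since its replicate 1 lay at parental isotype levels and its replicate 3 near the top of the series.

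Itga4, the alpha chain of VLA-4 and of the gut-homing integrin, had 16.82, 17.33 and 6.53 TPM in parental isotype grafts, 8.68, 7.25 and 17.96 TPM in UV2 isotype grafts, and 27.82, 8.56 and 18.92 TPM in parental anti-PD-1 grafts. UV2 anti-PD-1 grafts had 21.81, 8.81 and 8.60 TPM, and triple therapy grafts 10.42, 15.44 and 19.48 TPM, so that all 5 ranges overlapped. Its partner Itgb7 had 12.45, 9.93 and 21.41 TPM in parental isotype grafts, 16.18, 30.63 and 51.16 TPM in UV2 isotype grafts, 25.62, 19.86 and 15.15 TPM in parental anti-PD-1 grafts, and 63.99, 46.29 and 67.36 TPM in UV2 anti-PD-1 grafts. The lowest UV2 anti-PD-1 value was thus 46.29 TPM against a highest parental anti-PD-1 value of 25.62 TPM. Triple therapy grafts had 29.74, 17.38 and 20.96 TPM of Itgb7, overlapping both parental groups.

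The comparison of the lines under isotype antibody addressed how the tumors differed when given the control antibody. No member passed the threshold (0 of 9, with limma and Benjamini-Hochberg adjustment over all genes tested, against 1.29% of all genes), although 7 of 9 had an unadjusted p under 0.05, against 17.8% of all genes. The members' median log2 fold change was 0.90, against -0.04 for all genes. The log2 fold changes of TPM + 1, UV2 over parental, were -1.55 ± 0.54 (SE) for Sele (adjusted p = 0.149), 1.19 ± 0.35 for Icam1 (adjusted p = 0.102), 1.02 ± 0.30 for Vcam1 (adjusted p = 0.1004) and 1.19 ± 0.38 for Selplg (adjusted p = 0.121). Itgb7, at 1.03 ± 0.38, Itgal, at 0.90 ± 0.39, and Itgb2, at 0.79 ± 0.35, pointed the same way as Selplg. Selp, at 0.22 ± 0.76, and Itga4, at -0.23 ± 0.50, were closest to 0. Groups did not overlap for Sele, Icam1 and Vcam1, that is 3 of 9 members against 19.6% of all genes. Icam1 passed, at 1.48 and adjusted p = 0.0445, without parental isotype replicate 3, and Selplg (1.56) and Itgb7 (1.45) passed, both at adjusted p = 0.0475, without UV2 isotype replicate 1.

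Under anti-PD-1, 5 of 9 members differed between the lines at an adjusted p under 0.05, against 26.4% of all genes, and 7 of 9 had an unadjusted p under 0.05 (45.1% of all genes). The members' median log2 fold change was 1.01. Higher in UV2 were 4 members (9.31% of all genes were called higher): Selplg by 1.72 ± 0.38 (adjusted p = 0.0158), Itgb7 by 1.52 ± 0.38 (adjusted p = 0.0211), Icam1 by 1.31 ± 0.35 (adjusted p = 0.0243) and Itgb2 by 1.09 ± 0.35 (adjusted p = 0.0407) on the log2 scale. Sele was the 1 member called lower (17.1% of all genes were), at -1.64 ± 0.54 (adjusted p = 0.0427). Itgal, at 1.01 ± 0.39 (adjusted p = 0.0677), Vcam1, at 0.64 ± 0.30 (adjusted p = 0.111), Selp, at 0.42 ± 0.76 (adjusted p = 0.678), and Itga4, at -0.45 ± 0.50 (adjusted p = 0.490), did not pass. The groups did not overlap for 6 of 9 members, Itgal included, against 51.2% of all genes. The median of all genes in this comparison was -0.21 as deposited and 0.03 after median-of-ratios scaling, so relative to it the higher members stood further from the other genes and Sele nearer. None of the 5 calls held without parental anti-PD-1 replicate 3 or without UV2 anti-PD-1 replicate 3, the UV2 library with keratinocyte transcripts, when 9 genes of the whole table passed; the fold changes then ran from 0.95 to 1.70 for the higher members and were -1.57 and -1.15 for Sele. The call of Itgb2 was lost without any of the 6 libraries compared, and that of Sele without 4 of them. That of Icam1 was also lost without parental anti-PD-1 replicate 2 (adjusted p = 0.0517). Vcam1 passed, at 1.04 and adjusted p = 0.0268, without UV2 anti-PD-1 replicate 2. With no filter on low values Sele (adjusted p = 0.0617) and Itgb2 (adjusted p = 0.0593) did not pass. Sele also did not pass when only the compared groups were fitted (adjusted p = 0.0747). Itgal passed in that fit (adjusted p = 0.0412) and with median-of-ratios scaling (adjusted p = 0.0250).

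**Figure D2:**
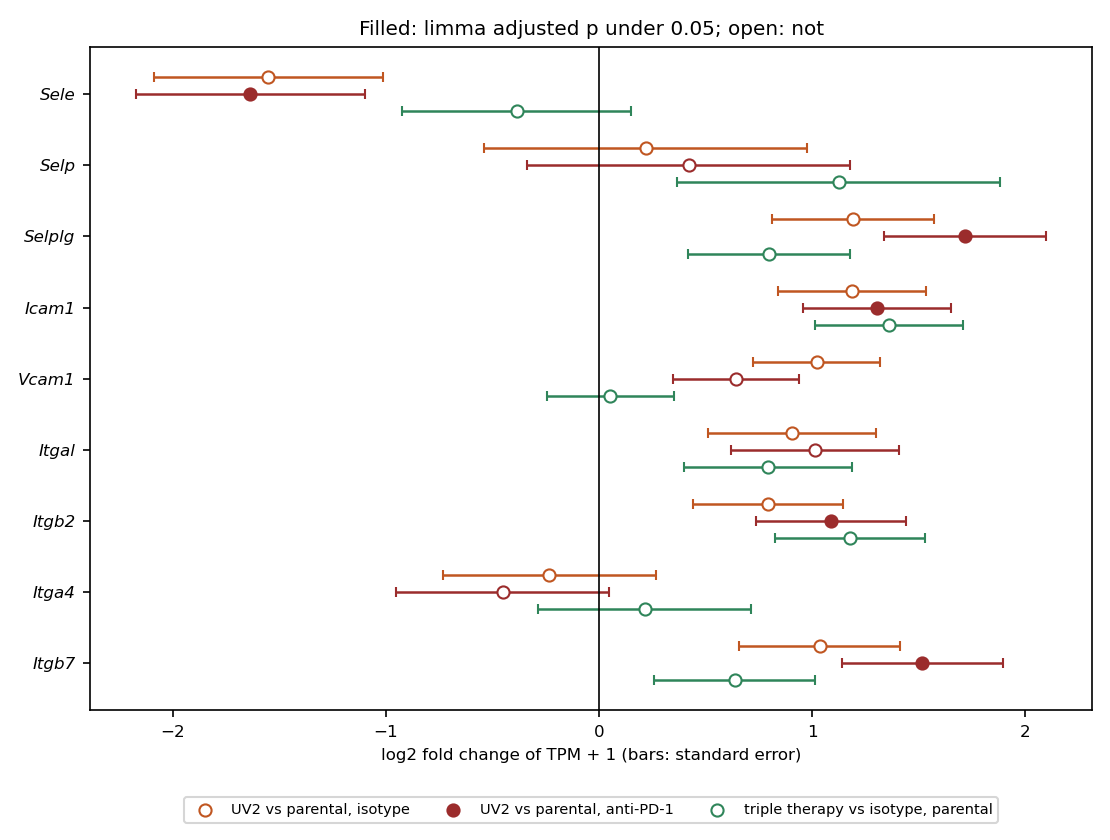
Log2 fold change of TPM + 1 (horizontal axis) with its standard error for the 9 members in UV2 against parental grafts under isotype and under anti-PD-1, and in triple therapy against isotype in parental grafts; filled points have a limma adjusted p under 0.05. Sele lies left of 0 and Selplg, Icam1 and Itgb7 right of 0 in both line comparisons, and Vcam1 lies near 0 in the triple therapy comparison.

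Anti-PD-1 against isotype asked what the antibody changed within a line. In parental grafts 0 of 9 members passed (0% of all genes), and none had an unadjusted p under 0.05 (0.611% of all genes), and the median fold change was 0.32, against 0.07 for all genes. Itgal, at 0.41 ± 0.39 (adjusted p = 1), was the only member whose groups did not overlap, against 4.27% of all genes, and Itgb7 stood at 0.48. In UV2 grafts 0 of 9 passed (0.0147% of all genes), the groups of all 9 overlapped (13.0% of all genes did not overlap), and the median was 0.44. The median of all genes there was -0.11 as deposited and 0.01 after median-of-ratios scaling. Itgb7, at 0.96 ± 0.38 (adjusted p = 0.542), was the only member with an unadjusted p under 0.05 (9.16% of all genes), Selplg stood at 0.72 ± 0.38 and Vcam1 at -0.21 ± 0.30, a sign that turned to 0.19 without UV2 anti-PD-1 replicate 2. These comparisons share their control libraries with the line comparisons above. The antibody effect in UV2 minus that in parental grafts ran from -0.38 for Vcam1 to 0.53 for Selplg, with 0 of 9 members passing (0% of all genes) and none having an unadjusted p under 0.05 (2.97% of all genes). For this difference the median of all genes was -0.16 as deposited and 0.03 after median-of-ratios scaling.

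Triple therapy against isotype in parental grafts asked what the combined treatment changed. No member passed (0 of 9, against 0.0221% of all genes), and 2 had an unadjusted p under 0.05 (12.6% of all genes): Icam1, at 1.36 ± 0.35 (adjusted p = 0.301), and Itgb2, at 1.18 ± 0.35 (adjusted p = 0.320). Icam1, Itgal (0.79 ± 0.39) and Itgb2 did not overlap between the groups and were higher, 3 of 9 members against 16.1% of all genes in either direction. The members' median was 0.79, and that of all genes 0.12 as deposited and -0.01 after median-of-ratios scaling. Markers of other cells also shifted between these groups. The 6 neutrophil markers summed to 133.5 to 3565.8 TPM in triple therapy against 24.6 to 144.6 TPM in isotype grafts. Their median log2 fold change was 2.43, and the medians were 5.04 for keratinocyte and 1.21 for fibroblast and pericyte markers. Leukocyte markers had a median of 0.70, macrophage markers 0.72 and endothelial markers 1.00, whereas T cell and NK cell markers had -0.23 and -0.21. No gene of these lists was called, and their part in the result was not tested. Selp, at 1.12 ± 0.76, and Selplg, at 0.80 ± 0.38, overlapped, and Vcam1 (0.05), Itga4 (0.21) and Sele (-0.39) were closest to 0; Vcam1 turned to -0.08 with median-of-ratios scaling and Itga4 to -0.06 with quantile normalization. Without triple therapy replicate 1, the library rich in keratinocyte transcripts, Icam1 stood at 1.12, Itgb2 at 1.04 and Selp at 0.62. Icam1 passed, at 1.64 with adjusted p = 0.0431, without triple therapy replicate 2. Against parental anti-PD-1, triple therapy again gave 0 of 9 calls (0% of all genes) and 2 members with an unadjusted p under 0.05 (10.4% of all genes), Icam1 at 1.04 and Itgb2 at 0.82. Itgb2 was the 1 member whose groups did not overlap, against 12.3% of all genes.

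In bulk tumors, fewer cells of a type and less RNA per cell cannot be told apart. Each member was therefore set beside leukocyte markers or, for the selectins and vascular ligands, beside endothelial and leukocyte markers. These lists were assigned in advance, and which cells carried each member in these grafts was not tested. The 10 leukocyte markers, such as Ptprc, summed to 1017.3 to 1900.5 TPM in parental isotype grafts, 1022.9 to 1695.9 in parental anti-PD-1 grafts, 1663.7 to 2358.2 in triple therapy grafts, 2143.4 to 3768.8 in UV2 isotype grafts and 3512.1 to 5438.1 in UV2 anti-PD-1 grafts. Under anti-PD-1, 9 of 10 were called higher in UV2, as were 9 of 10 T cell markers and 5 of 8 macrophage markers, against 9.31% of all genes. NK cell markers had 2 of 5 called higher, B and plasma cell markers 1 of 4 tested and neutrophil markers 0 of 6. Under isotype 1 of 10 leukocyte, 0 of 10 T cell and 1 of 8 macrophage markers were called higher, against 0.905% of all genes. The 12 endothelial markers, such as Cdh5, summed to 218.2 to 293.1 TPM in parental isotype grafts, 213.1 to 357.3 in parental anti-PD-1 grafts, 269.1 to 580.4 in triple therapy grafts, 199.9 to 288.3 in UV2 isotype grafts and 165.1 to 283.2 in UV2 anti-PD-1 grafts. Between the lines, none of the 12 was called under isotype and only Eng, a receptor of the TGF-beta family, under anti-PD-1, lower in UV2 by a log2 fold change of -0.91. Eng also weighed most in the sums, with a median of 149.4 TPM over the libraries against at most 33.4 TPM for any other marker. The mean log2 level of the list, which weighs its genes equally, was 3.35 ± 0.65 (SD) in parental and 3.55 ± 0.56 in UV2 grafts under anti-PD-1. There 8 of the 12 had a positive fold change, with a median of 0.21 against -0.21 for all genes. The part of these cell types in the members' differences was not tested.

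Selplg followed the leukocyte markers closely. Its log2 level minus the mean log2 level of the leukocyte list had an SD of 0.16 over the 15 libraries, against 0.84 for Selplg itself, and the line differences shrank to 0.05 under isotype and 0.16 under anti-PD-1. Itgb7 likewise shrank to -0.11 and -0.04. Itgal, at -0.24 and -0.54, and Itgb2, at -0.35 and -0.47, lay lower in UV2 relative to the leukocyte list, for Itgb2 under anti-PD-1 with no overlap. Itga4 did not follow the list: relative to it, Itga4 was lower in UV2 by -1.38 under isotype, with overlap, and by -2.01 under anti-PD-1, with none. The list itself was higher in UV2, and Itga4 itself changed by -0.23 and -0.45, with overlap in both. A gene with equal levels in both lines would also lie lower relative to the list. The values therefore do not show a lower level of Itga4 per leukocyte. In triple therapy against parental isotype grafts the pattern for LFA-1 differed, Itgb2 being 0.50 above and Itgal 0.12 above relative to the leukocyte list, without overlap for Itgb2.

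Sele did not follow the endothelial markers across the lines. Relative to the endothelial list it was lower in UV2 by -1.58 under isotype and -1.84 under anti-PD-1, both without overlap and as large as the differences of Sele itself. Icam1 relative to the same list was higher by 1.15 and 1.10, again without overlap. Icam1 is also made by leukocytes and tumor cells, and relative to the leukocyte list its line differences were 0.04 and -0.25, with overlap. In triple therapy against parental isotype grafts Icam1 was 0.68 above relative to the leukocyte list, without overlap, and 0.44 above relative to the endothelial list, with overlap. Vcam1 relative to the endothelial list was 0.99 higher in UV2 isotype grafts, without overlap, and 0.44 higher under anti-PD-1, with overlap. Relative to the leukocyte list Vcam1 had the opposite sign, at -0.12 and -0.91, with overlap in both.

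**Figure D3:**
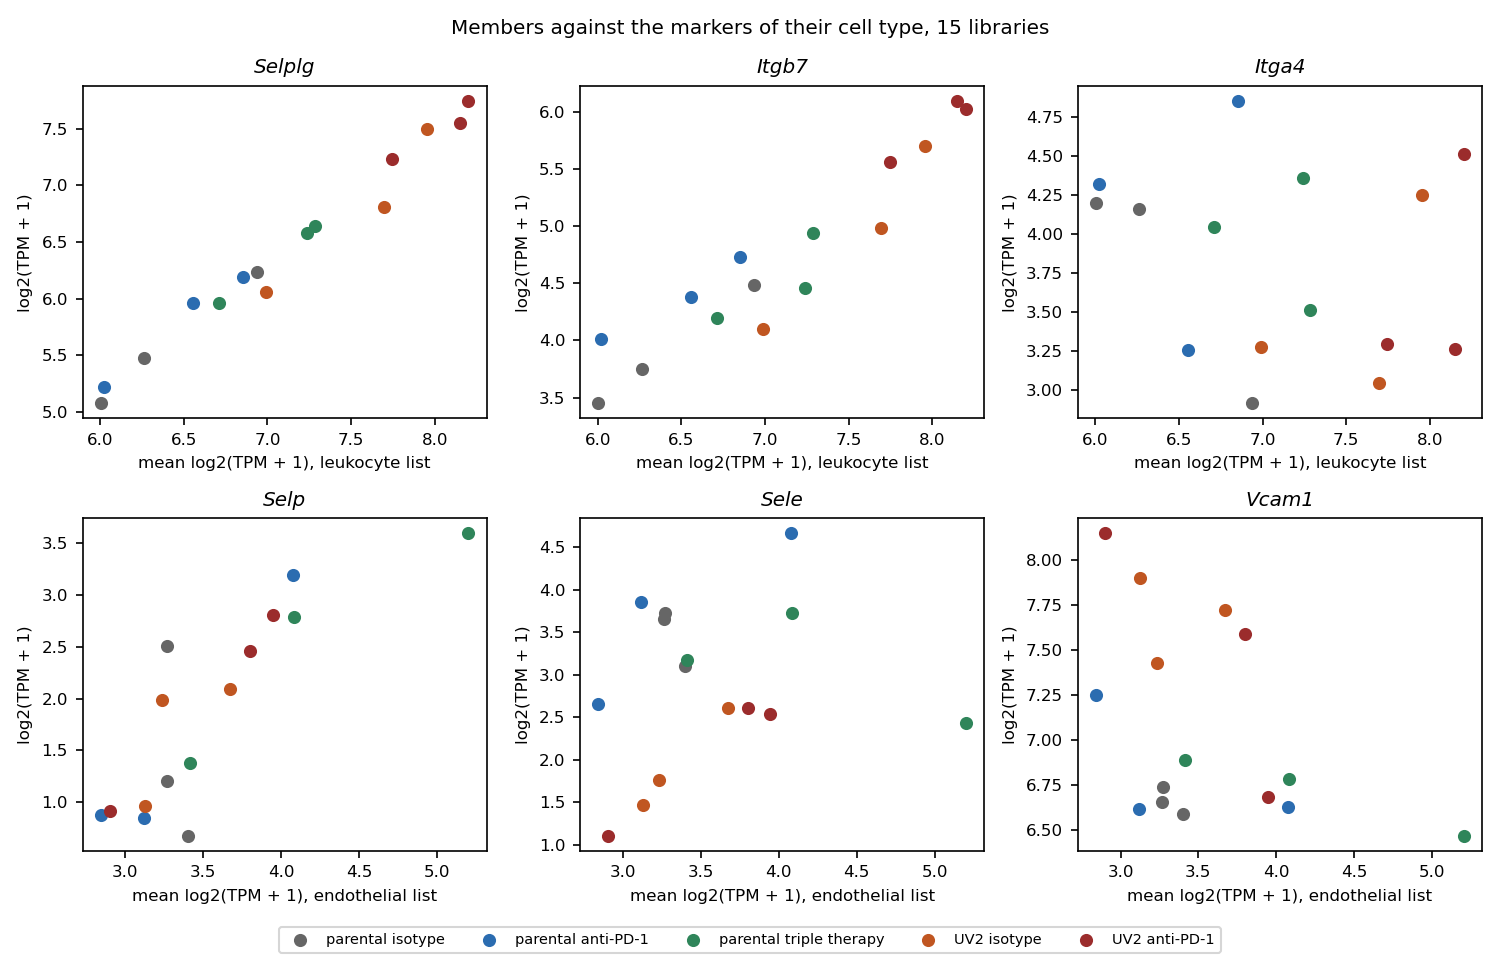
Level of 6 members (vertical axis, log2 of TPM + 1) against the mean level of the leukocyte list (upper panels) or the endothelial list (lower panels) in the 15 libraries, coloured by group. Selplg and Itgb7 climb with the leukocyte list, Itga4 shows no such line, Selp climbs with the endothelial list, and the UV2 libraries lie below most parental ones for Sele.

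Over the 15 libraries, Pearson correlations of log2 levels describe the same picture. They are given without a test, because libraries of a group are not independent of its treatment and TPM are shares of a common total. With the leukocyte list, r was 0.99 for Selplg (Spearman's rho 0.99) and 0.94 for Itgb7 (rho 0.93), and after group means were removed it was 0.98 and 0.94. For Itga4 it was -0.21 (rho -0.07). Icam1 had its highest r with the macrophage list, at 0.93 (rho 0.95), and 0.90 after group means were removed. Selp had r = 0.85 with the endothelial list (rho 0.81), and 0.81 without the 2 libraries farthest from the median of that list. Its r was 0.81 with the fibroblast and pericyte list too, and 0.81 with the neutrophil list (rho 0.84). Sele had 0.21 with the endothelial list, and 0.41 without the 2 libraries farthest from its median. Vcam1 stood out from the other vascular genes, with r = -0.45 with the endothelial list (rho -0.40, and r = -0.63 after group means were removed). With the NK cell list its r was 0.88 (rho 0.84, and r = 0.72 after group means were removed).

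**Figure D4:**
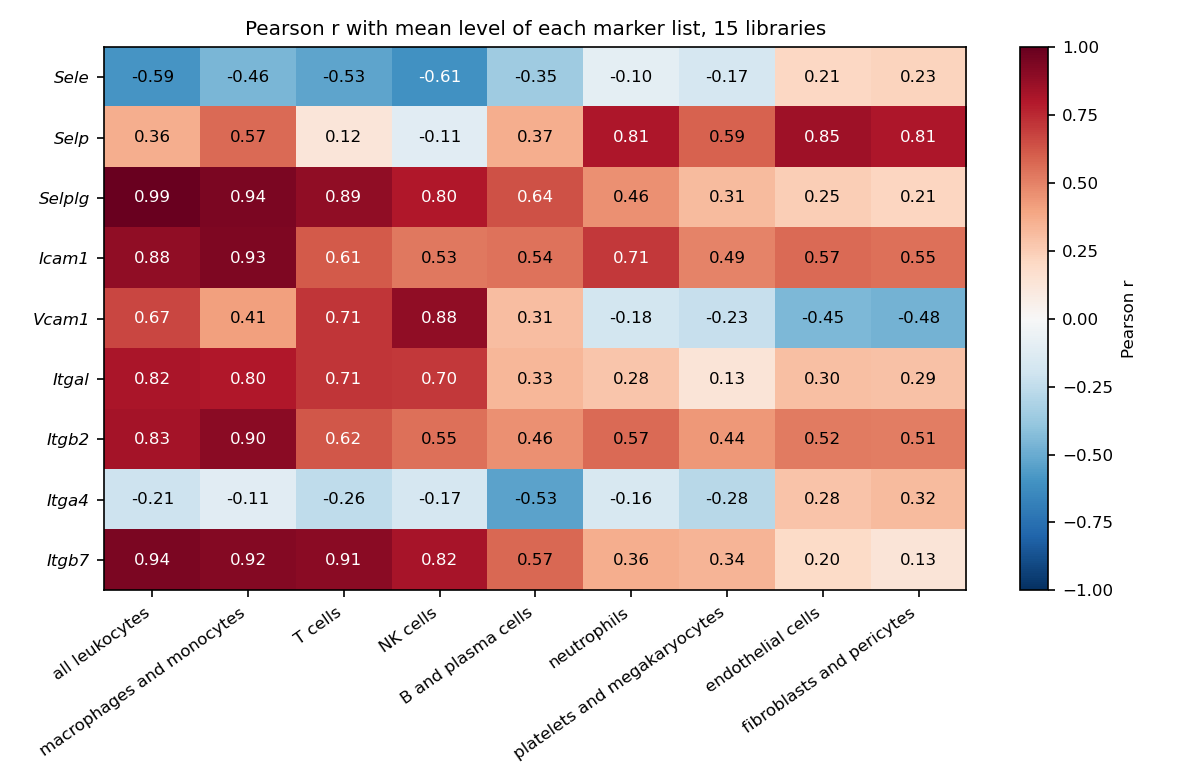
Pearson r between the log2 level of each member and the mean log2 level of each marker list over the 15 libraries. Selplg, Icam1, Itgal, Itgb2 and Itgb7 are high with the leukocyte list, and Vcam1 with the NK cell list. Selp is high with the endothelial, neutrophil, and fibroblast and pericyte lists, while Itga4 and Sele are below 0 with the leukocyte list.

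Among the members themselves, the highest correlations were between Selplg and Itgb7 (r = 0.966) and between Itgal and Itgb2 (r = 0.931), the chains of LFA-1. The paired chains Itga4 and Itgb7 had r = -0.12. Itga4 was closest to Sele, at 0.639, and Sele and Vcam1 were the most opposed pair, at -0.759. Sele and its neighbour on the chromosome, Selp, had r = 0.26.

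The genes most like each member were sought among 10258 genes. Sele was closest to Anxa7 (r = 0.975), Zfp52 (0.969) and Mllt11 (0.965), of which none is an endothelial marker used here. Selp was closest to Steap4 (0.964), Adora2b (0.931) and Htra3 (0.927). Selplg was closest to Sash3 (0.995), Cd53 (0.994), itself in the leukocyte list, and Fam78a (0.989). Icam1 was closest to Ticam2 (0.981), Kctd12 (0.974) and Myo1f (0.972), and Vcam1 to Dhx58 (0.954), Mnda (0.942) and Cd69 (0.940). Itgal was closest to Cyfip2 (0.968), Adrbk1 (0.960) and Slamf7 (0.954), and Itgb2 to Psd4 (0.982), Mpeg1 (0.970) and Tbc1d9 (0.965). Itga4 had the loosest companions, Camk1d (0.922), Ppp1r18 (0.910) and Plekho2 (0.909), and Itgb7 was closest to Unc13d (0.979), Il2rg (0.976) and Gimap4 (0.976).

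Of 58 other genes of the adhesion cascade, 57 were in the table and 52 were tested. Between the lines under anti-PD-1, 12 of the 52 were called higher in UV2 and 5 lower, against 9.31% and 17.1% of all genes, with a median log2 fold change of 0.47 against -0.21 for all genes. The called genes with the smallest p were Fermt3 (kindlin-3, which activates leukocyte integrins), from 45.4 ± 10.97 to 131.1 ± 23.7 TPM, at 1.52 ± 0.29 (adjusted p = 0.0114), and Ccr2, a chemokine receptor of monocytes, from 21.1 ± 9.72 to 99.9 ± 18.1 TPM, at 2.26 ± 0.48 (adjusted p = 0.0140). Next came Fut7, which fucosylates selectin ligands, at 1.78 ± 0.41 (adjusted p = 0.0177), and Klf2, a factor that maintains homing receptors on T cells, at 1.73 ± 0.40 (adjusted p = 0.0178). The 5 lower genes, named after their values were seen, were the hyaluronan receptor Cd44 (-1.35), the integrin chains Itga6 (-2.67) and Itgav (-1.17), the junctional molecule Jam2 (-1.85) and Cd99l2 (-0.75). Melanoma cells are known to make Cd44 and Itgav as well. By role, chemokine and homing signals had 6 of 12 tested genes called higher (median 1.71), integrin activation 2 of 9 (median 0.49), and the other integrin chains 1 higher and 2 lower of 10 (median -1.01). Other selectins and selectin ligands had 2 higher and 1 lower of 12 (median -0.09), and immunoglobulin-type adhesion genes 1 higher and 2 lower of 9 (median 0.44).

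Under isotype none of the 52 was called (1.29% of all genes), with 20 at an unadjusted p under 0.05 (17.8% of all genes); Ccr2 (1.95 ± 0.48, adjusted p = 0.0667) and Fermt3 (1.18 ± 0.29, adjusted p = 0.0672) were first. Triple therapy against isotype gave none, with 13 at an unadjusted p under 0.05 (12.6% of all genes), led by Ccr7, the lymph node homing receptor, at -1.52 ± 0.50, and Fyb, an adaptor in integrin activation, at 1.09 ± 0.36, both with adjusted p = 0.337. Triple therapy against anti-PD-1 gave none, with 9 at an unadjusted p under 0.05 (10.4% of all genes), led by the chemokines Cxcl12 (2.21 ± 0.70) and Ccl21a (4.30 ± 1.39), both with adjusted p = 0.384. Anti-PD-1 against isotype gave none in either line, with 0 in parental (0.611% of all genes) and 6 in UV2 grafts (9.16% of all genes) at an unadjusted p under 0.05. The smallest p values belonged to Cx3cr1 (-0.67 ± 0.33) and Cyth1 (0.31 ± 0.24) in parental and to St3gal4 (-0.41 ± 0.14) and Cx3cr1 (-0.94 ± 0.33) in UV2 grafts. The difference of the antibody effects gave none, with 0 at an unadjusted p under 0.05, led by Itgav (-0.79 ± 0.42) and Itga2 (-1.60 ± 0.87).

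Cytokines that induce the vascular ligands and NF-kappaB feedback genes formed a list of 18, all tested. Under isotype the only gene called, 1 of 18 against 1.29% of all genes, was Tnf, the cytokine that induces Sele, Icam1 and Vcam1 on endothelium, from 4.62 ± 0.56 TPM in parental to 12.5 ± 3.31 TPM in UV2 grafts, at 1.24 (adjusted p = 0.0214). Under anti-PD-1, 7 of 18 were called higher in UV2 and none lower, against 9.31% and 17.1% of all genes (median 0.62, against -0.21 for all genes). They included Tnf, from 6.38 ± 0.42 to 17.1 ± 2.58 TPM at 1.29, Ifng, from 4.55 ± 0.98 to 26.4 ± 6.62 TPM at 2.29, and Nfkbia, the NF-kappaB inhibitor that NF-kappaB itself induces, from 73.1 ± 9.10 to 141.4 ± 8.59 TPM at 0.95, all chosen after their values were seen. Under anti-PD-1, Sele was called lower in the UV2 grafts in which Tnf and Icam1 were called higher. A link between these genes was not tested.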

How the data were processed

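Transcript abundance in 15 libraries was deposited by the authors as gene-level TPM. Per the submitters' processing notes, the build was mm10 (GRCm38) and the tools were RSEM and Bowtie2, whose versions are not given in the sources used here. TPM keep no depth, so no counting interval is given. All 15 columns were used (0 unused). Values were analysed as log2(TPM + 1), which understates changes of low genes. Limma 3.58.1 in R 4.3.3 fitted 1 coefficient per group over all 15 libraries (10 residual degrees of freedom; eBayes with trend and robust), two-sided, with Benjamini-Hochberg adjustment over the 13592 genes that reached 1 TPM in 3 or more libraries, and was tested on simulated data. Calls need an adjusted p under 0.05. Positions are from GENCODE M21.

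Named were all 9 members, up to 4 called genes of the other adhesion genes with the smallest p per comparison (2 where none was called), and the 3 genes with the highest r to each member (mean TPM of at least 5, predicted genes left out). Members and lists were chosen with earlier results of these data known. No label says that replicate numbers pair libraries, so they were not a block in the main fit. Planned protein comparisons were not made here. Alternatives were a pseudocount of 0.1, no filter, a TPM minimum of 5, median-of-ratios scaling, quantile normalization, a replicate block, the compared groups alone, and leaving out each library.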

Additional observations from a re-analysis of the deposited data

How the results depend on the processing

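The 5 calls between the lines under anti-PD-1 became 3 with no filter and 3 with a replicate block (Icam1, Itgb7 and Selplg), and ranged from 0 to 4 when a library was left out. Calls between the lines under isotype ranged from 0 to 2 without a library, and those of triple therapy against isotype from 0 to 1. No other alternative changed a count by over 1.5 times, but with the compared groups alone the 5 under anti-PD-1 held Itgal in place of Sele. Of 30 same-numbered pairs of libraries, 10 had deviations from their group means correlated above 0.1 (all 30 ran from -0.54 to 0.47). These correlations cannot show whether the numbers pair libraries. Over all genes, the line comparison under anti-PD-1 split into 1265 higher and 2321 lower genes as deposited, 1951 and 1793 with median-of-ratios scaling, and 1788 and 2314 with quantile normalization. The sign check covered 36 single-gene fold changes chosen for reporting, and not every member in every comparison. Of these, 30 kept their sign under every setting and 34 under the 7 that kept all libraries. In triple therapy against isotype, Vcam1 was -0.084 with median-of-ratios scaling and -0.035 to 0.18 without a library, and Itga4 was -0.059 with quantile normalization and -0.21 to 0.44 without a library. Without a library, the isotype line difference ran from -0.17 to 0.74 for Selp and -0.65 to 0.0052 for Itga4, and for Vcam1 the antibody effect in UV2 from -0.55 to 0.19 and the difference of antibody effects from -0.72 to 0.017. The cause of these changes was not tested. Depth is unknown, so how far it limits the low values of Sele and Selp was not tested.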
